A study of Mus musculus with 8 samples.

Results

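The ezrin, radixin and moesin (ERM) genes *Ezr*, *Rdx* and *Msn*, the merlin gene *Nf2*, the scaffold genes *Slc9a3r1* and *Slc9a3r2* and the chloride intracellular channel gene *Clic4* were followed in retinal pigment epithelium (RPE) of mice with and without *Bbs8*. These 7 of the 31053 genes listed were chosen by name, as the proteins that tie apical microvilli to the membrane in epithelia. The choice was made with earlier results of these data known. RNA was taken at postnatal day 29 (P29) from C57/Bl6 *Bbs8*-/- mice and from age-matched *Bbs8*+/+ littermates, in 4 libraries per genotype, and the mice received no treatment. The deletion was carried by the whole animal and not by the RPE alone, and RPE sheets were peeled from trypsin-treated eyecups after the retina had been removed. The study counted each animal as a biological replicate. *Xist*, which is made in female cells, and Y-linked transcripts were both counted in all 8 libraries, which is at odds with 1 animal per library, so n = 4 counts libraries. *Xist* was higher in every *Bbs8*-/- library than in any *Bbs8*+/+ library, so a part of sex cannot be told apart from genotype. *Bbs8*, listed as *Ttc8*, encodes a subunit of the BBSome, the complex that carries membrane proteins to and from cilia.

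The apical face of the RPE carries long microvilli that wrap the outer segments of photoreceptors. ERM proteins bind membrane proteins and phosphoinositides through an amino-terminal FERM domain and actin through their carboxy terminus. They are folded and inactive until phosphoinositide binding and phosphorylation of a threonine near the carboxy terminus open them. Merlin shares the FERM domain, lacks the typical actin-binding end and acts in growth control upstream of the Hippo kinases. The products of *Slc9a3r1* (NHERF1, also EBP50) and *Slc9a3r2* (NHERF2) are PDZ scaffolds that link ERM proteins to transporters, and CLIC4 is found with ezrin at the apical pole of RPE cells.

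The coding sequence around that threonine is shown because its phosphorylation is the switch that the ERM genes share. The sequences were read from the GENCODE M21 transcripts of GRCm38, 63 coding bases each from 5′ to 3′, with the threonine codon in capitals.
Ezr: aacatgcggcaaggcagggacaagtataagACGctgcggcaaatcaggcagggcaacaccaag
Msn: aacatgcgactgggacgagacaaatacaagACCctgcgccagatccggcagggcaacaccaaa
Rdx: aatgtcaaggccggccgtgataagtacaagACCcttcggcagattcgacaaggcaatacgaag
The codon is number 567 of 586 in *Ezr*, 558 of 577 in *Msn* and 564 of 583 in *Rdx*. *Ezr* and *Msn* differed at 13 of these 63 bases, and *Rdx* differed from each of them at 21. Over the whole coding sequence *Ezr* and *Msn* were identical at 74.7% of aligned bases, *Msn* and *Rdx* at 73.0%, and *Ezr* and *Rdx* at 70.9%. *Nf2* was 65.2% to 66.1% identical to the ERM genes, and the NHERF genes were 68.0% identical to each other. None of the 7 genes shared a run of 50 bases with another gene in the last 500 bases of its transcripts, which is the end that the 3′ libraries read.

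Counts on genes ranged from 2495094 to 3093428 in *Bbs8*+/+ libraries and from 2389835 to 2736289 in *Bbs8*-/- libraries. Levels are given as counts relative to library size (CPM) after TMM scaling, which sets libraries on a common scale by trimming the genes that differ most between them. A floor of 3 counts per library equals 1.02 to 1.23 CPM on this scale. Each transcript gives counts at its 3′ end alone, so CPM were not divided by transcript length. *Ttc8* was at 35.5 to 58.9 CPM in *Bbs8*+/+ and 1.79 to 6.16 CPM in *Bbs8*-/- libraries (log2 fold change -3.34 ± 0.29, SE, adjusted p = 2.47e-11, edgeR's quasi-likelihood test). RPE transcripts such as *Rpe65*, *Rgr* and *Ttr* were abundant in all 8 libraries, while *Best1* was at 0 to 2.00 CPM. Transcripts of other tissues moved with genotype, and their part in the results for the 7 genes was not tested. Summed over 16 genes, of which 12 were called lower and 3 higher, photoreceptor transcripts were at 54005 to 58310 CPM in *Bbs8*+/+ and 22106 to 22596 CPM in *Bbs8*-/- libraries. All 10 lens genes were called lower (sums of 2686 to 2965 and 348 to 409 CPM), as were all 5 erythrocyte genes (5152 to 5717 and 1985 to 2217 CPM). Of 8 genes of a reactive glia list 7 were called higher (186 to 246 and 1107 to 1210 CPM). The largest in *Bbs8*-/- libraries were *Serpina3n* and *Stat3*, with means of 423 and 369 CPM. *Gfap*, which defines such glia, was at 0 to 2.45 and 3.84 to 8.24 CPM, and the cells that made these transcripts were not identified.

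*Ezr* and *Msn* were up-regulated in *Bbs8*-/- RPE, and *Rdx*, *Nf2*, *Slc9a3r1*, *Slc9a3r2* and *Clic4* did not pass the test. All 7 genes passed the filter on low counts (at least 1 CPM in at least 4 libraries). Of them 2 were higher and 0 lower at an adjusted p under 0.05, against 5.46% higher and 6.8% lower among the 12889 genes tested. Because the 7 genes were chosen with earlier results known, these shares describe them and do not test them as a set. The same 2 and 0 were found at an unadjusted p under 0.05, which 3016 of the 12889 genes tested passed in either direction. They were also found by DESeq2, which called 752 of all genes higher and 901 lower. The genotypes did not overlap for 2 genes, both higher in *Bbs8*-/- RPE, against 7.42% of genes tested in that direction and 8.62% in the other. Without regard to the test, 5 of the 7 estimates were above 0, with a median log2 fold change of 0.10 against 0.02 over all genes tested, of which 51.8% were above 0. Both calls depended on the transcripts that libraries were scaled by. In bulk RNA fewer cells of a type and less RNA per cell cannot be told apart.

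*Ezr* encodes ezrin, the ERM protein that marks RPE microvilli. It lies at chr17:6738041-6782784 on the minus strand of GRCm38, has 13 exons and ends in a last exon of 1427 bases that overlaps the 3′ end of *Sytl3* on the opposite strand by 4 bases. *Ezr* was at 821, 773, 757 and 743 CPM in the *Bbs8*+/+ libraries and at 926, 850, 993 and 974 CPM in the *Bbs8*-/- libraries. Every *Bbs8*-/- library was above every *Bbs8*+/+ library. The means were 774 ± 33.9 CPM and 936 ± 63.6 CPM (SD, n = 4 per genotype), a difference of 162 CPM (exact permutation test, two-sided, p = 0.0286, the smallest that 4 against 4 libraries allow). The log2 fold change was 0.27 ± 0.07 (SE; 95% interval 0.13 to 0.42; adjusted p = 0.00725, edgeR), or 1.21-fold, and 29.9% of the genes tested had a larger one. Ezrin is also made by epithelia of the ocular surface, and of 7 tested genes of that list 5 were called higher. *Krt5*, *Krt14* and *Krt15*, which define basal cells of such epithelia, were at 0 to 0.372 CPM in *Bbs8*+/+ and 2.15 to 27.3 CPM in *Bbs8*-/- libraries, and their part in the *Ezr* values was not tested. *Krt8*, another of the 5, and *Krt18*, which was not called, were at 48.7 to 83.6 and 363 to 508 CPM over all 8 libraries. The whole list, most of it *Krt18*, summed to 417 to 508 and 586 to 650 CPM, so that sum does not measure the basal cells.

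*Msn* encodes moesin, the ERM protein best known from leukocytes and endothelium. It lies at chrX:96096042-96168552 on the plus strand and contains the small RNA gene *Gm24718* on the opposite strand. *Msn* was at 108, 126, 93.6 and 123 CPM in *Bbs8*+/+ and at 130, 174, 170 and 155 CPM in *Bbs8*-/- libraries. The genotypes did not overlap, but the highest *Bbs8*+/+ library and the lowest *Bbs8*-/- library were close. The means were 112 ± 14.9 CPM and 157 ± 19.9 CPM (SD, n = 4 per genotype; exact permutation test, two-sided, p = 0.0286). The log2 fold change was 0.48 ± 0.12 (SE; 95% interval 0.24 to 0.73; adjusted p = 0.00497, edgeR), or 1.40-fold.

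Markers of the cells in which moesin is abundant did not pass the test, but their defining genes rested on few counts. The part of these cells in the *Msn* values was not tested. The endothelial list summed to 27.5 to 41.8 CPM in *Bbs8*+/+ and 30.8 to 39.5 CPM in *Bbs8*-/- libraries, with 0 of 7 tested genes called by edgeR or DESeq2 and 0 at an unadjusted p under 0.05. Its defining genes *Pecam1* and *Cdh5* stayed between 0 and 3.49 CPM, at 0 to 10 counts per library. Their log2 fold changes were 0.95 and 1.25, and *Pecam1* did not overlap between genotypes. Of the 7 estimates 5 were above 0 and 2 below. The list of microglia and other leukocytes summed to 347 to 464 and 300 to 352 CPM, with 0 of 9 genes called by edgeR or DESeq2 and 1 lower at an unadjusted p under 0.05. Most of that sum was *Csf1r*, which was lower in *Bbs8*-/- RPE without overlap (log2 fold change -0.28, adjusted p = 0.0658, edgeR). *Cd68* was higher without overlap (0.73, adjusted p = 0.397, edgeR), and *Ptprc*, which defines leukocytes, was at 0 to 7.06 CPM. Of the 9 estimates 4 were above 0 and 5 below. *Msn* is on the X chromosome, and *Xist*, the RNA of the inactive X, was at 41.3 to 71.1 CPM in *Bbs8*+/+ and 200 to 212 CPM in *Bbs8*-/- libraries (log2 fold change 1.78, adjusted p = 2.23e-13, edgeR). The Y-linked *Ddx3y* had counts in the same 8 libraries, at 73.6 to 108 and 66.7 to 86.4 CPM. All 4 Y-linked genes examined had estimates below 0, opposite to *Xist*, and none passed the test. *Eif2s3y* did not overlap, at 10.2 to 14.3 and 4.11 to 9.20 CPM (log2 fold change -0.97, adjusted p = 0.0936, edgeR). The labels give no sex. *Xist* separated the genotypes, so a part of sex in the values of *Msn*, or of any other gene here, cannot be told apart from genotype.

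*Rdx* encodes radixin, the third ERM protein, and lies at chr9:52047173-52088735 on the plus strand. *Rdx* was at 257, 195, 189 and 246 CPM in *Bbs8*+/+ and at 221, 226, 220 and 218 CPM in *Bbs8*-/- libraries. All 4 *Bbs8*-/- libraries fell inside the *Bbs8*+/+ range. The log2 fold change was -0.0046 (95% interval -0.21 to 0.21; adjusted p = 0.989, edgeR), and the exact permutation test gave p = 1. Both ends of this interval are smaller in size than the *Ezr* estimate. The coefficient of variation among libraries was 15.6% in *Bbs8*+/+ and 1.51% in *Bbs8*-/- RPE.

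**Figure D1:**
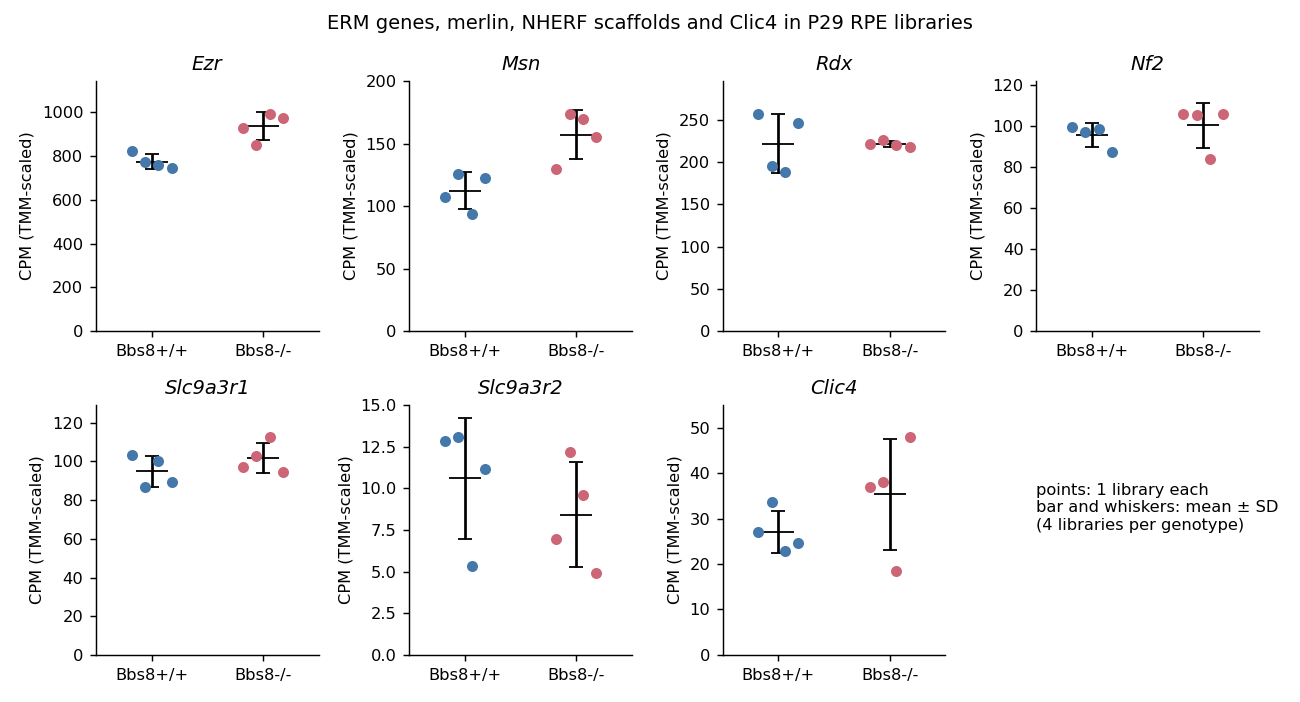
TMM-scaled CPM (y axes, starting at 0) of the 7 genes in 4 *Bbs8*+/+ and 4 *Bbs8*-/- libraries, with 1 point per library and the mean ± SD. *Ezr* and *Msn* do not overlap between genotypes, and the other 5 genes do.

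Because a share within a library does not depend on scaling, the ERM genes were also set against each other. *Ezr* held 66.8% to 72.8% of the counts on the 3 ERM genes in *Bbs8*+/+ and 68.0% to 72.5% in *Bbs8*-/- libraries, and the ranges overlapped. The share of *Msn* was 9.0% to 11.5% and 10.2% to 13.9%, and that of *Rdx* was 17.9% to 22.1% and 15.9% to 18.1%. In every library the order was *Ezr*, *Rdx*, *Msn*. *Msn* counts relative to *Rdx* counts were 0.418 to 0.643 in *Bbs8*+/+ and 0.588 to 0.771 in *Bbs8*-/- libraries, and *Ezr* relative to *Rdx* 3.02 to 4.01 and 3.77 to 4.50, both with overlap. The summed level of the 3 genes was 1040 to 1186 CPM and 1250 to 1383 CPM, with no overlap.

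**Figure D2:**
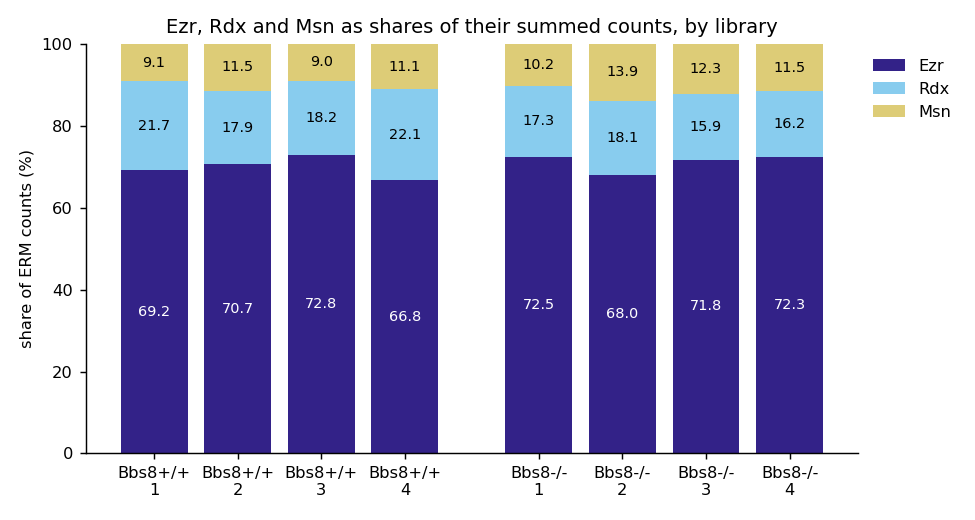
Share (%) of the summed *Ezr*, *Rdx* and *Msn* counts held by each gene in each library, with *Bbs8*+/+ libraries on the left and *Bbs8*-/- libraries on the right. *Ezr* takes between 66.8% and 72.8% of the ERM counts in all 8 libraries.

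Merlin, encoded by *Nf2* at chr11:4765845-4849536 on the minus strand, has the FERM domain without the ERM actin-binding tail. *Nf2* was at 99.5, 97.3, 98.9 and 87.3 CPM in *Bbs8*+/+ and at 106, 106, 84.0 and 106 CPM in *Bbs8*-/- libraries. Of the *Bbs8*-/- libraries 3 lay above the *Bbs8*+/+ range and 1 below it. The log2 fold change was 0.07 (95% interval -0.19 to 0.33; adjusted p = 0.814, edgeR; exact permutation p = 0.429).

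Of the NHERF scaffold genes, *Slc9a3r1* was above *Slc9a3r2* in every library. *Slc9a3r1*, at chr11:115163341-115181181 on the plus strand, was at 103, 86.5, 100 and 89.2 CPM in *Bbs8*+/+ and at 97.3, 103, 112 and 94.3 CPM in *Bbs8*-/- libraries. The ranges overlapped, and the log2 fold change was 0.10 (95% interval -0.16 to 0.36; adjusted p = 0.706, edgeR; exact permutation p = 0.286). *Slc9a3r2*, at chr17:24639286-24650327 on the minus strand, was at 12.9, 13.1, 5.31 and 11.1 CPM and at 6.98, 12.2, 9.60 and 4.89 CPM, from 13 to 38 counts per library. Its log2 fold change was -0.34 (95% interval -1.13 to 0.45; adjusted p = 0.677, edgeR; exact permutation p = 0.371). This interval reaches from 0.458-fold to 1.37-fold, so a fall or a rise within it remains compatible with these libraries.

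*Clic4*, at chr4:135213969-135272814 on the minus strand, was at 27.1, 33.6, 22.9 and 24.5 CPM in *Bbs8*+/+ and at 37.0, 38.0, 18.4 and 47.9 CPM in *Bbs8*-/- libraries. Of the *Bbs8*-/- libraries 3 were above the *Bbs8*+/+ range and 1 was below it. The log2 fold change was 0.39 (95% interval -0.09 to 0.87; adjusted p = 0.343, edgeR; exact permutation p = 0.314). Without *Bbs8*-/- library 4 the estimate was 0.20, and without *Bbs8*-/- library 3 it was 0.60, neither of them called. *Clic4* rested on 46 to 137 counts per library, and *Ezr* on 1853 to 2787.

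In mean level over *Bbs8*+/+ libraries *Ezr* was first, followed by *Rdx*, *Msn*, *Nf2*, *Slc9a3r1*, *Clic4* and *Slc9a3r2*. *Msn*, *Nf2* and *Slc9a3r1* overlapped in this order, and the other neighbours did not. After each genotype's mean was removed, deviations of *Ezr* from library to library had a correlation of -0.13 with *Msn* and 0.14 with *Rdx* over 8 libraries. The highest correlation among the 21 pairs was 0.83, between *Nf2* and *Clic4*, which were both lowest in the same *Bbs8*-/- library. These correlations are descriptions of 8 libraries that share depth and scaling.

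The rise of *Ezr* and *Msn* was next compared with transcripts of the RPE itself. *Ezr* counts were 41.7% to 42.6% of those of *Rlbp1*, a retinoid carrier, in *Bbs8*+/+ and 45.4% to 52.3% in *Bbs8*-/- libraries. Relative to *Rgr*, an RPE opsin, the percentages were 15.3 to 18.4 and 18.8 to 21.0. Relative to *Rpe65*, the retinoid isomerase, which was itself lower in *Bbs8*-/- RPE (log2 fold change -0.25), they were 15.6 to 18.8 and 21.6 to 25.4. In these 3 ratios the genotypes did not overlap and *Bbs8*-/- was higher. Relative to *Ttr*, the retinol carrier transthyretin, the order was turned, with 3.52 to 3.83 in *Bbs8*+/+ and 2.79 to 3.09 in *Bbs8*-/- libraries. *Ttr* itself rose by a log2 fold change of 0.60 (adjusted p = 3.35e-16, edgeR). The RPE genes *Slc6a20a* and *Slc16a8* were also called higher, by 0.54 and 0.37, which is more than *Ezr*, and no ratio to them was taken. *Rlbp1* and *Rgr* were at 0.04 and -0.01. Of the 14 RPE genes 3 were called higher and 3 lower. *Msn* counts were 5.15% to 6.91% of *Rlbp1* counts in *Bbs8*+/+ and 7.05% to 9.30% in *Bbs8*-/- libraries, again without overlap. *Rlbp1* and *Glul* are also made by Müller glia, whose list summed to 6943 to 7696 and 8332 to 8789 CPM. Most of that sum was *Apoe*, with means of 4110 and 4856 CPM, followed by *Rlbp1* and *Glul*. Of the 7 genes *Apoe* and *Glul* were called higher and 0 were called lower. Of the 7 estimates 6 were above 0, and *Vim* was at -0.18. The Müller markers *Aqp4* and *Kcnj10* were at 0 to 2.97 CPM in *Bbs8*+/+ and 0 to 10.3 CPM in *Bbs8*-/- libraries.

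**Figure D3:**
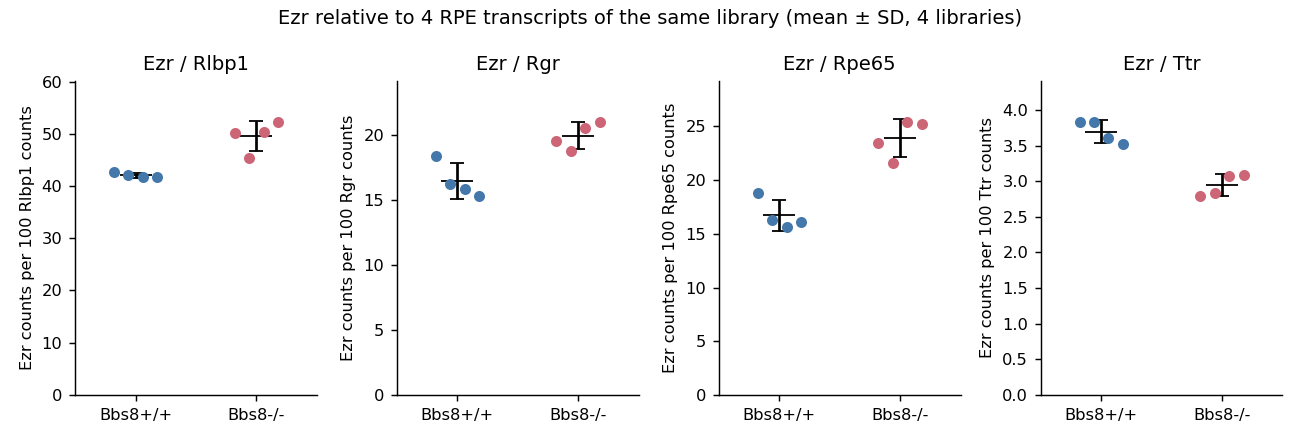
*Ezr* counts per 100 counts of *Rlbp1*, *Rgr*, *Rpe65* or *Ttr* in the same library (y axes, starting at 0), with 1 point per library and the mean ± SD of 4 libraries per genotype. *Bbs8*-/- libraries are above *Bbs8*+/+ libraries for the first 3 transcripts and below them for *Ttr*.

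Which RPE transcripts set the scale therefore decided the call. When libraries were scaled by the summed counts of 14 RPE markers, the median of all genes moved by -0.31 on the log2 scale, *Ezr* was at -0.03 (adjusted p = 0.814, edgeR) and *Msn* at 0.18 (adjusted p = 0.355, edgeR). *Rdx* was then called lower (-0.31, adjusted p = 0.0291, edgeR), *Nf2* was at -0.24 and *Slc9a3r1* at -0.20, neither of them called. *Ttr* held 50.1% to 52.2% of that sum in *Bbs8*+/+ and 61.5% to 63.6% in *Bbs8*-/- libraries. Scaled by the same list without *Ttr*, *Ezr* was at 0.36 and *Msn* at 0.57, and scaled by the median ratio of the RPE markers at 0.29 and 0.50, all 4 of them called. Scaled by library size alone, *Ezr* was at 0.36 and *Msn* at 0.57, both called, and the calls over all genes split into 1005 higher and 657 lower in place of 704 and 877.

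**Figure D4:**
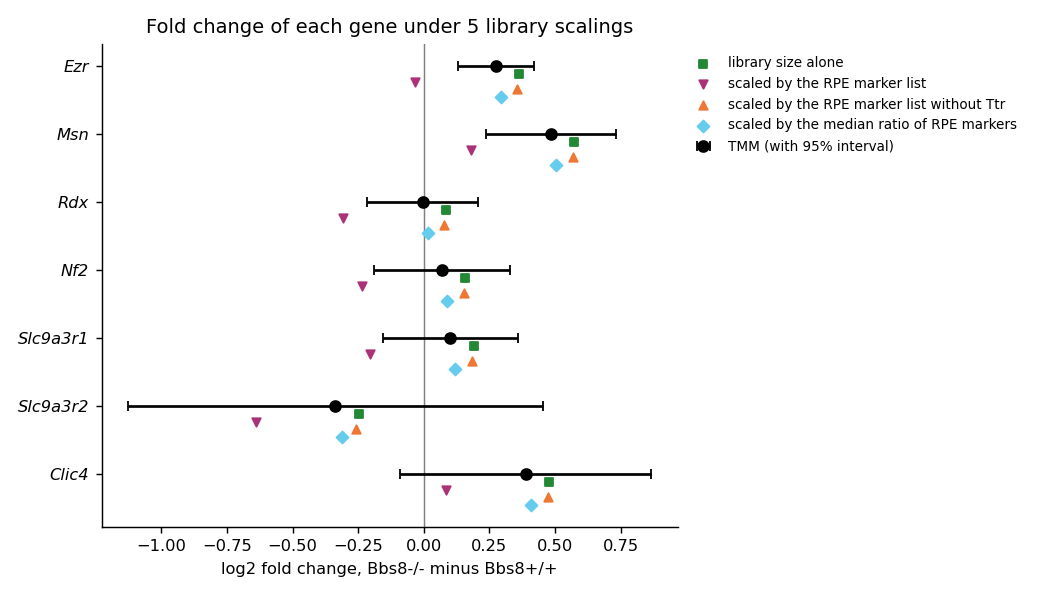
Log2 fold change of the 7 genes (x axis) under 5 scalings of the libraries, with the 95% interval for TMM. *Ezr* and *Msn* lie above 0 under TMM and 3 of the other scalings, and *Ezr* falls to -0.03 and *Msn* to 0.18 when the RPE list that contains *Ttr* sets the scale.

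Windows of 250 bases upstream of the transcript starts were searched for 3 motifs on both strands, and are shown for the up-regulated genes. The windows are RefSeq's, on GRCm38.p6, and 10 windows were found for all 7 genes. Motif letters are in capitals.
Ezr, chr17:6782781-6783030, minus strand: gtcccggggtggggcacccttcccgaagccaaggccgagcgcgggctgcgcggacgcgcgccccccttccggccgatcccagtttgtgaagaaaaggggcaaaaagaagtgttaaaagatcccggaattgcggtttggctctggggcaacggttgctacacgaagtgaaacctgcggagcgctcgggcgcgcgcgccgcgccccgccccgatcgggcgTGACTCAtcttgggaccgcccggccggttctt
Msn, chrX:96095795-96096044, plus strand: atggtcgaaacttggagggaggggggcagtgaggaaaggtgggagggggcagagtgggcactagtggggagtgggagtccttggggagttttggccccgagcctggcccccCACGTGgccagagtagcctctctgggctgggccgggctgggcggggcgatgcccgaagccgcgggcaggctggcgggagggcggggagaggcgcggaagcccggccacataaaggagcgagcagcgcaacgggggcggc
The AP-1 letters TGANTCA, where N is any base, were in the *Ezr* window, beginning 32 bases before the start, and in a *Slc9a3r2* window, and 6.75% of the 32851 windows of all genes held them. The E-box letters CACGTG were in the *Msn* window, beginning 139 bases before the start, and 6.02% of all windows held them. The TEAD letters GGAATG were in 0 of the 10 windows and in 12.6% of all windows. A match describes letters and shows no binding.

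Around the ERM proteins, 86 genes of 5 lists were examined, of which 68 were tested, 11 were up-regulated and 4 down-regulated. Together 22.1% were called, beside 12.3% of all genes tested, and the lists were written with earlier results of these data known.

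Among 25 microvillus core genes, 20 were tested, 1 rose and 3 fell, with a median log2 fold change of 0.04. Scaled by the RPE list that contains *Ttr*, 1 rose and 5 fell, beside 258 and 2703 of the 12889 genes tested. Over the fits that left out a library, 0 to 2 rose and 3 to 4 fell, and without *Bbs8*-/- library 3 the number that rose was 2. *Prom1*, whose product sits in membrane protrusions and is also abundant in photoreceptors, fell from 503 ± 61.4 to 309 ± 19.4 CPM (SD, n = 4 per genotype; log2 fold change -0.70 ± 0.09, SE, adjusted p = 1.75e-07, edgeR). *Fscn2*, an actin-bundling gene of photoreceptors and hair cells, fell from 67.1 to 92.0 CPM to 17.2 to 45.6 CPM (log2 fold change -1.46). Photoreceptor transcripts fell in the same libraries, and their part in these 2 values was not tested. *Eps8l1*, of the EPS8 family that caps and bundles actin, was at 8.58 to 12.3 CPM in *Bbs8*+/+ libraries and at 0 to 3 counts in *Bbs8*-/- libraries. *Myo1c*, a myosin that tethers membrane to actin, rose from 1.49 to 4.91 CPM to 6.80 to 14.0 CPM (log2 fold change 1.67, adjusted p = 0.0208, edgeR), and lost the call without *Bbs8*+/+ library 2 (adjusted p = 0.0765) or *Bbs8*-/- library 1 (adjusted p = 0.0940). *Actb* was at 0.06 (adjusted p = 0.621, edgeR), and *Vil1*, which encodes villin of intestinal microvilli, had 0 counts in all 8 libraries. The 16 genes not called ranged from -0.55 to 2.30, and the highest of them, *Baiap2l1*, was at 0.339 to 5.73 CPM.

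Among 18 ERM regulators, 17 were tested, 3 rose and 1 fell. When the RPE list that contains *Ttr* set the scale, 1 rose and 4 fell, beside 258 and 2703 of the 12889 genes tested. *Slk*, which encodes a kinase of the ERM threonine, rose from 215 ± 6.50 to 274 ± 16.1 CPM (SD, n = 4 per genotype; log2 fold change 0.35 ± 0.09, SE, adjusted p = 0.00779, edgeR). *Rock2*, which encodes a kinase of the actin cytoskeleton, rose by 0.72 (adjusted p = 4.03e-06, edgeR), while *Rock1* was at 0.03 (adjusted p = 0.901). *Rac1*, a small GTPase gene, rose by 0.30 (adjusted p = 0.0337, edgeR), and lost the call in 5 of the 8 fits that left out a library, without *Bbs8*+/+ library 2 or 3 or *Bbs8*-/- library 2, 3 or 4 (adjusted p = 0.0599 to 0.156). *Prkca*, which encodes a protein kinase C, fell from 106 to 120 CPM to 64.3 to 89.5 CPM (log2 fold change -0.56, adjusted p = 0.00282, edgeR). *Rhoa*, *Cdc42* and the 3 *Pip5k1* genes, whose products make the phosphoinositide that opens ERM proteins, were tested and not called.

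Among 18 membrane partners of ERM proteins, 10 were tested, 2 rose and 0 fell by edgeR and by DESeq2. Without adjustment of the p, 3 were higher and 1 was lower at 0.05, beside 3016 of the 12889 genes tested in either direction. Scaled by the RPE list that contains *Ttr*, 1 rose and 3 fell, beside 258 and 2703 of the 12889 genes tested. With TMM, 1 fell without *Bbs8*+/+ library 1 or without *Bbs8*-/- library 1. *Pdpn*, which encodes podoplanin, rose from 562 ± 56.1 to 779 ± 30.1 CPM (SD, n = 4 per genotype; log2 fold change 0.47 ± 0.08, SE, adjusted p = 2.24e-05, edgeR). *Cd9*, a tetraspanin gene, rose from 18.3 to 26.2 CPM to 54.5 to 60.4 CPM (log2 fold change 1.34, adjusted p = 1.66e-06, edgeR). The 8 genes not called ranged from -0.50 to 0.85, and the 8 untested genes, among them *Slc9a3*, the exchanger that gave the NHERF genes their symbols, and *Cftr*, reached at most 2.80 CPM in any library.

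Among 21 genes of merlin and the Hippo pathway, 19 were tested, 4 rose and 0 fell by edgeR, and 3 rose and 0 fell by DESeq2. At an unadjusted p under 0.05 the same 4 and 0 were found, beside 3016 of the 12889 genes tested in either direction. Scaled by the RPE list that contains *Ttr*, 1 rose and 3 fell, beside 258 and 2703 of the 12889 genes tested. Without *Bbs8*-/- library 1 the number that rose was 2. The median log2 fold change of the list was 0.20. *Wwc1*, which encodes the merlin partner KIBRA, rose from 66.7 ± 4.84 to 109 ± 19.1 CPM (SD, n = 4 per genotype; log2 fold change 0.72 ± 0.14, SE, adjusted p = 0.000280, edgeR). *Amot*, an angiomotin gene, rose by 0.87 (adjusted p = 0.0274, edgeR), and lost the call without *Bbs8*+/+ library 2 (adjusted p = 0.113), *Bbs8*-/- library 1 (adjusted p = 0.110) or *Bbs8*-/- library 4 (adjusted p = 0.0744). *Ccn1* and *Ccn2*, known targets of YAP, rose by 0.45 (adjusted p = 0.0162, edgeR) and 0.80 (adjusted p = 0.00372, edgeR). *Ccn1* overlapped between genotypes and lost the call without *Bbs8*+/+ library 4 (adjusted p = 0.0959) or *Bbs8*-/- library 1 (adjusted p = 0.108). *Ccn2* was at 51.1, 146, 234 and 174 CPM in *Bbs8*+/+ and 249 to 278 CPM in *Bbs8*-/- libraries. Without *Bbs8*+/+ library 1 its log2 fold change was 0.51 (adjusted p = 0.000152, edgeR), and DESeq2 did not call it with all libraries (adjusted p = 0.216). *Yap1* was at 0.25 (adjusted p = 0.260, edgeR), and neither it nor the kinase genes *Lats1*, *Lats2*, *Stk3* and *Stk4* were called.

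Of the 4 other *Clic* genes examined, *Clic6* and *Clic1* were tested. *Clic6* was at 371, 381, 390 and 407 CPM in *Bbs8*+/+ and at 480, 455, 483 and 470 CPM in *Bbs8*-/- libraries, with no overlap (log2 fold change 0.29 ± 0.08, SE, adjusted p = 0.0126, edgeR). Its level was above that of *Clic4* in every library. *Clic1* was at 0.33 (adjusted p = 0.649, edgeR). *Slk*, *Pdpn*, *Amot*, *Ccn1* and *Ccn2* lost their calls under the scaling by the RPE list that contains *Ttr*, and *Clic6* and *Rac1* turned to -0.02 and -0.0007.

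**Figure D5:**
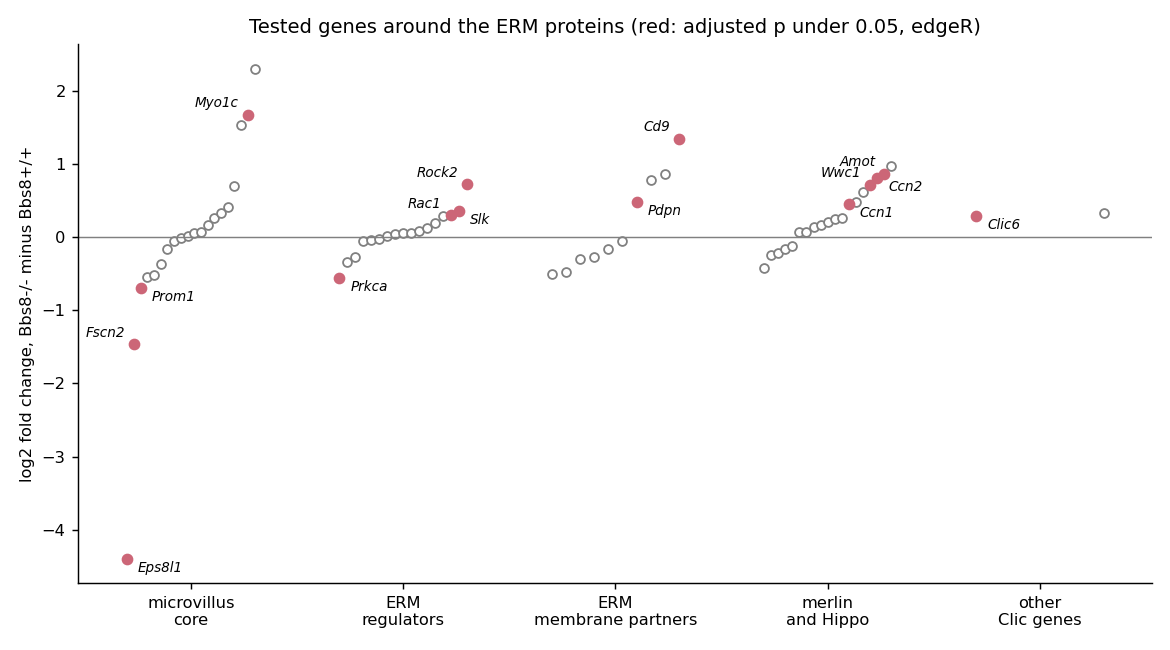
Log2 fold change (y axis) of the 68 tested genes in 5 lists, each in rising order, with the 15 genes of adjusted p under 0.05 filled and named. Calls fall on both sides of 0 in the microvillus core list, where 1 gene rose and 3 fell, and mostly above 0 in the other lists.

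By the correlation of log2 CPM over the 8 libraries, the genes most like *Ezr* among 3285 genes of mean at least 50 CPM were *Sgk3* (r = 0.99), *Kcnq1ot1* (0.96), *Plin3* (0.96), *Map1a* (0.95) and *Tmem176a* (0.95). After each genotype's mean was removed, the values were 0.99, 0.80, 0.82, 0.82 and 0.85. *Sgk3*, a kinase gene, was at 98.1 to 111 CPM in *Bbs8*+/+ and 111 to 138 CPM in *Bbs8*-/- libraries (log2 fold change 0.29, adjusted p = 0.122, edgeR). *Kcnq1ot1*, *Plin3*, *Map1a* and *Tmem176a* were called higher, by 0.73, 0.41, 0.59 and 1.27. The choice was made before the genotype means were removed, so it favoured genes that rose with *Ezr*. The 8 points share depth and scaling.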

How the data were processed

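RPE RNA of 8 libraries (4 per genotype, assigned by their labels) was prepared with the QuantSeq 3′ kit, which primes on the poly-A tail. The authors aligned the reads to mm10 with STAR and deposited counts of uniquely mapped reads per Ensembl gene, without normalization. Rows that name no gene were left out. They held 51.0% to 52.4% of reads in *Bbs8*+/+ and 53.6% to 54.2% in *Bbs8*-/- libraries, without overlap. Among them, reads on no gene feature were at 17.0% to 18.4% and 19.8% to 20.6%. Genes with a count numbered 14115 to 14496 in *Bbs8*+/+ and 13657 to 14084 in *Bbs8*-/- libraries. These measures separated the genotypes, and their part in the results was not tested. The strand setting of the counting is not given in the sources used here. Symbols came from GENCODE M21 (31011 of 31053 identifiers).

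Counts were tested in R 4.3.3 with edgeR 4.0.16 (TMM, quasi-likelihood F test, two-sided, Benjamini-Hochberg over the 12889 genes that reached 1 CPM in 4 or more libraries, adjusted p under 0.05). Single genes were also compared by exact permutation tests of mean CPM with scipy 1.17.1. DESeq2 1.42.0 was an alternative. Libraries of a genotype differed by more than counting noise (chi-square per degree of freedom 2.87 to 7.51). Pairs with *Bbs8*+/+ library 1 were at 6.07 to 7.51, other *Bbs8*+/+ pairs at 2.87 to 3.41 and *Bbs8*-/- pairs at 4.17 to 5.05. Floors of 3 counts cover counting error only. The fit was tested on simulated data. Members and lists were chosen with earlier results of these data known. In each list the named genes are those past the threshold, up to 4 per direction, and a few others were chosen after their values were seen. For *Ezr*, the 5 genes of highest Pearson r were named.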

Additional observations from a re-analysis of the deposited data

Results flagged for a closer look

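In 5 of 52 groups of 4 libraries 1 library stood apart from the other 3 by more of the group's whole range than Dixon's 95% limit, where chance gives about 1 in 20. *Nf2* in *Bbs8*-/- RPE had 1 library at 84.0 CPM with the other 3 at 106 CPM. *Fscn2* in *Bbs8*+/+ RPE had 1 library at 92.0 CPM, above the others at 67.1 to 71.1 CPM. *Rock2* in *Bbs8*+/+ RPE had 1 library at 132 CPM, above the others at 116 to 117 CPM and below all *Bbs8*-/- libraries. *Cd9* in *Bbs8*-/- RPE had 1 library at 60.4 CPM with the others at 54.5 to 55.2 CPM. The share of *Ezr* in ERM counts had 1 *Bbs8*-/- library at 68.0%, below the others at 71.8% to 72.5%.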

How the results depend on the processing

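*Ezr* and *Msn* were called higher, and no other member was called, under DESeq2, the likelihood ratio test, both other filters, a threshold of 0.01, library size alone, TMM factors without photoreceptor, lens and erythrocyte genes, and in each of 8 fits that left out a library (2 members higher and 0 lower in each; *Ezr* 0.24 to 0.32, adjusted p 0.000465 to 0.0473; *Msn* 0.40 to 0.56, adjusted p 0.00165 to 0.0355, edgeR). Over all genes these fits called 542 to 643 higher and 708 to 856 lower. Scaled by the RPE list, 0 members were called higher and 1 lower, with 258 and 2703 of all genes, and *Ezr* (-0.033), *Nf2* (-0.24), *Slc9a3r1* (-0.20), *Rac1* (-0.00070) and *Clic6* (-0.021) turned below 0. Scaling by that list without *Ttr* and by the median ratio of RPE markers was chosen after seeing the data. Against a fold change of 1.2, 0 members passed (*Ezr* adjusted p = 0.620, *Msn* 0.116), with 353 and 494 of all genes, and at 0.01 all genes gave 394 and 571. *Rdx*, near 0, turned positive under library size alone (0.086), the RPE list without *Ttr* (0.076), the median ratio (0.015), DESeq2 (0.00026), filterByExpr (0.0072), the replicate block (0.0078) and without *Bbs8*+/+ replicate 1 (0.075), *Bbs8*+/+ replicate 4 (0.041) or *Bbs8*-/- replicate 4 (0.0033), uncalled in each, and ranged from -0.081 to 0.075 over fits without 1 library. Replicate numbers gave no sign of pairing, since same-numbered deviations correlated at -0.03 to 0.01 and the others at -0.02 to 0.03. With 4 libraries per genotype this cannot show that the libraries were unpaired. With the replicate block *Ezr* was at 0.27 (adjusted p = 0.0131, edgeR), *Msn* at 0.48 (adjusted p = 0.00670), and 650 of all genes were called higher and 827 lower. *Slc9a3r2* had 13 to 38 counts per library and *Clic4* 46 to 137, and libraries of a genotype differed by up to 2.5-fold and 2.6-fold. The cause of these differences between settings was not tested.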
